A study of Mus musculus with 14 samples.

Results

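The genes described are 10 long noncoding RNAs, out of 53735 gene symbols in the tables, in 2 classes. The first class is 5 host genes of small nucleolar RNAs, Gas5, Snhg1, Snhg3, Snhg8 and Snhg12. The second is 5 nuclear and heart noncoding RNAs, Mhrt, Malat1, Neat1, H19 and Meg3. The genes were picked by name from both count tables, not by a measured value, though earlier results of these data were known. All 10 passed the filter on low counts in each table. Poly-A selected RNA from hearts of male C57BL/6 mice was sequenced in 14 libraries. A library is called a heart below, although the labels do not spell out that each was a different animal. All mice carried 1 copy of the αMHC-MerCreMer transgene (alphaMHCMCM/+) and had received tamoxifen, which activates this Cre recombinase. Knockout mice (cKO) also carried floxed Fam210a alleles (Fam210afl/fl), and controls did not. Fam210a encodes a mitochondrial protein. Hearts were collected about 5 weeks after tamoxifen (early, 4 cKO and 4 control) or about 10 weeks after it (late, 3 cKO and 3 control). Cardiac function was described as normal at the first time and strongly impaired at the second. The αMHC promoter is active in cardiomyocytes, so other cells of the whole heart keep the gene, and the animals' age is not stated in the labels. The counts of the 2 times were deposited as separate tables. Time therefore cannot be told apart from table, and the knockout was compared with control inside a table.

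Small nucleolar RNAs guide the chemical modification of ribosomal RNA, and most of them are cut out of the introns of host genes. The spliced host transcript is exported, carries short reading frames, and is destroyed by nonsense-mediated decay when ribosomes read it. Its level is known to rise in cells where translation or this decay pathway is blocked. Many host genes start with a run of pyrimidines, as the genes of ribosomal proteins do (terminal oligopyrimidine, or TOP, genes). The other class works differently. Malat1 sits in nuclear speckles, Neat1 is the scaffold of paraspeckles, and Mhrt is transcribed in cardiomyocytes antisense to the myosin gene Myh7. H19 and Meg3 are imprinted, maternally expressed RNAs that are abundant before birth.

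The start regions of the host genes are shown because a pyrimidine start is a feature that the class is known for and that the list did not use. Each stretch runs from 30 bases before to 50 after a RefSeq transcript start (GRCm38.p6), 5′ to 3′ on the gene's strand. Capitals mark a C followed by at least 4 pyrimidines that begins within 10 bases of the start.
Gas5 (second start, chr1:161035136-161035215, plus strand): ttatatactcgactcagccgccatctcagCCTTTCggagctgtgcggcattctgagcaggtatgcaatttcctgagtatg
Snhg8 (chr3:123508287-123508366, minus strand): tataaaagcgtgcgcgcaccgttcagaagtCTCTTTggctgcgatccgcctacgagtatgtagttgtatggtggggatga
Snhg12 (chr4:132308648-132308727, plus strand): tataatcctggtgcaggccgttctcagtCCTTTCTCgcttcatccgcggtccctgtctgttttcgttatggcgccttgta
Snhg3 (chr4:132353637-132353716, minus strand): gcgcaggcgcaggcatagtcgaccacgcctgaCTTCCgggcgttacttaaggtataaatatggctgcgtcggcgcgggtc
Snhg1 (chr19:8723457-8723536, plus strand): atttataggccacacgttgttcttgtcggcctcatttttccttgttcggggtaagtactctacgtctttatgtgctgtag
Such a run was present in Gas5, Snhg8, Snhg12 and Snhg3, and neither Snhg1 nor the first annotated start of Gas5 had one in this window. A run within 10 bases of the start was found in 30.7% of the 32851 promoters of the table, and a pyrimidine start exactly at the first base in 2.51%. Of the members' starts on record, only that of Snhg8 and the second of Gas5 had a pyrimidine start exactly at the first base. Of the other class, Mhrt and Meg3 (at its first start) also held a run within 10 bases of the start, and Malat1 did not. The core of the element bound by ATF4 (TGATGNAA, both strands) occurred in none of the members' windows from 250 bases before to 50 after the start, and in 3.97% of all promoters. CCAAT (both strands) occurred in Snhg3, Snhg8 and Meg3 and in 37.4% of all promoters. These matches describe letters in a window only.

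The libraries held 15657298 to 19466469 counts early and 29989076 to 35750964 late. As a check of the labels, Fam210a stood at 135 to 158 CPM (counts scaled to library size) in early cKO hearts and 165 to 178 CPM in early controls, with no overlap. It did not pass the test across all genes (difference of means on the log2 scale, or log2 fold change, of -0.22, SE 0.06, adjusted p = 0.168). Its late level dropped from 128 ± 7.27 to 66.8 ± 3.41 CPM (n = 3 a group, SD, log2 difference -0.94, adjusted p = 7.16e-05). Of its exon bases, 2798 are shared with Ldlrad4 on the opposite strand, where reads cannot be assigned, and Ldlrad4 had a late log2 fold change of -0.91 (SE 0.22, adjusted p = 0.00547), which leaves the size of the late Fam210a difference uncertain. Of the early hearts, cKO replicate 4 has a knockout title and a control genotype field. Among the late cKO hearts, replicate 3 was the least alike (chi-square over genes, divided by their number, 107 and 101 to the others and 21.5 between those). Mitochondrially encoded genes took 11.2 to 16.0% of counts in late cKO hearts and 19.7 to 22.6% in late controls, and 25.6 to 29.4% and 24.5 to 26.0% early. Cardiomyocyte markers (9 genes) summed to 36175 to 46115 CPM in late cKO and 46150 to 56716 CPM in late control hearts, so cardiomyocyte RNA was present throughout. In whole hearts, fewer cells of a type and less RNA per cell cannot be told apart.

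Early, none of the 10 RNAs changed past the test, where a gene counts as called at an adjusted p under 0.05 over all genes. In that comparison 75 of 13529 genes were called (0.554%), by edgeR's quasi-likelihood test, as everywhere below unless another tool is named. At an unadjusted p under 0.05, 1 of the 10 passed, Gas5, which is near the background, since 1340 of all 13529 genes did so. DESeq2 and limma-voom also called 0 of the 10. Late, 7 of the 10 were called, which is near the background, since 9705 of 14942 genes (65.0%) were called. By direction, 3 of the 10 rose against 31.8% of all genes, and 4 of the 10 fell against 33.2%. The 3 that rose were Gas5, Snhg3 and Malat1, and the 4 that fell were Mhrt, Neat1, H19 and Meg3. Where groups are said below not to overlap late, the share of all genes without overlap was not counted. Such a separation of 3 from 3 hearts has an exact permutation p of 0.1, so it does not set these RNAs apart. The median log2 fold change late was 0.53 over the 5 host genes and -1.41 over the 5 other RNAs, beside -0.02 over all genes tested. Early, these medians were 0.10, -0.01 and 0.00.

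**Figure D1:**
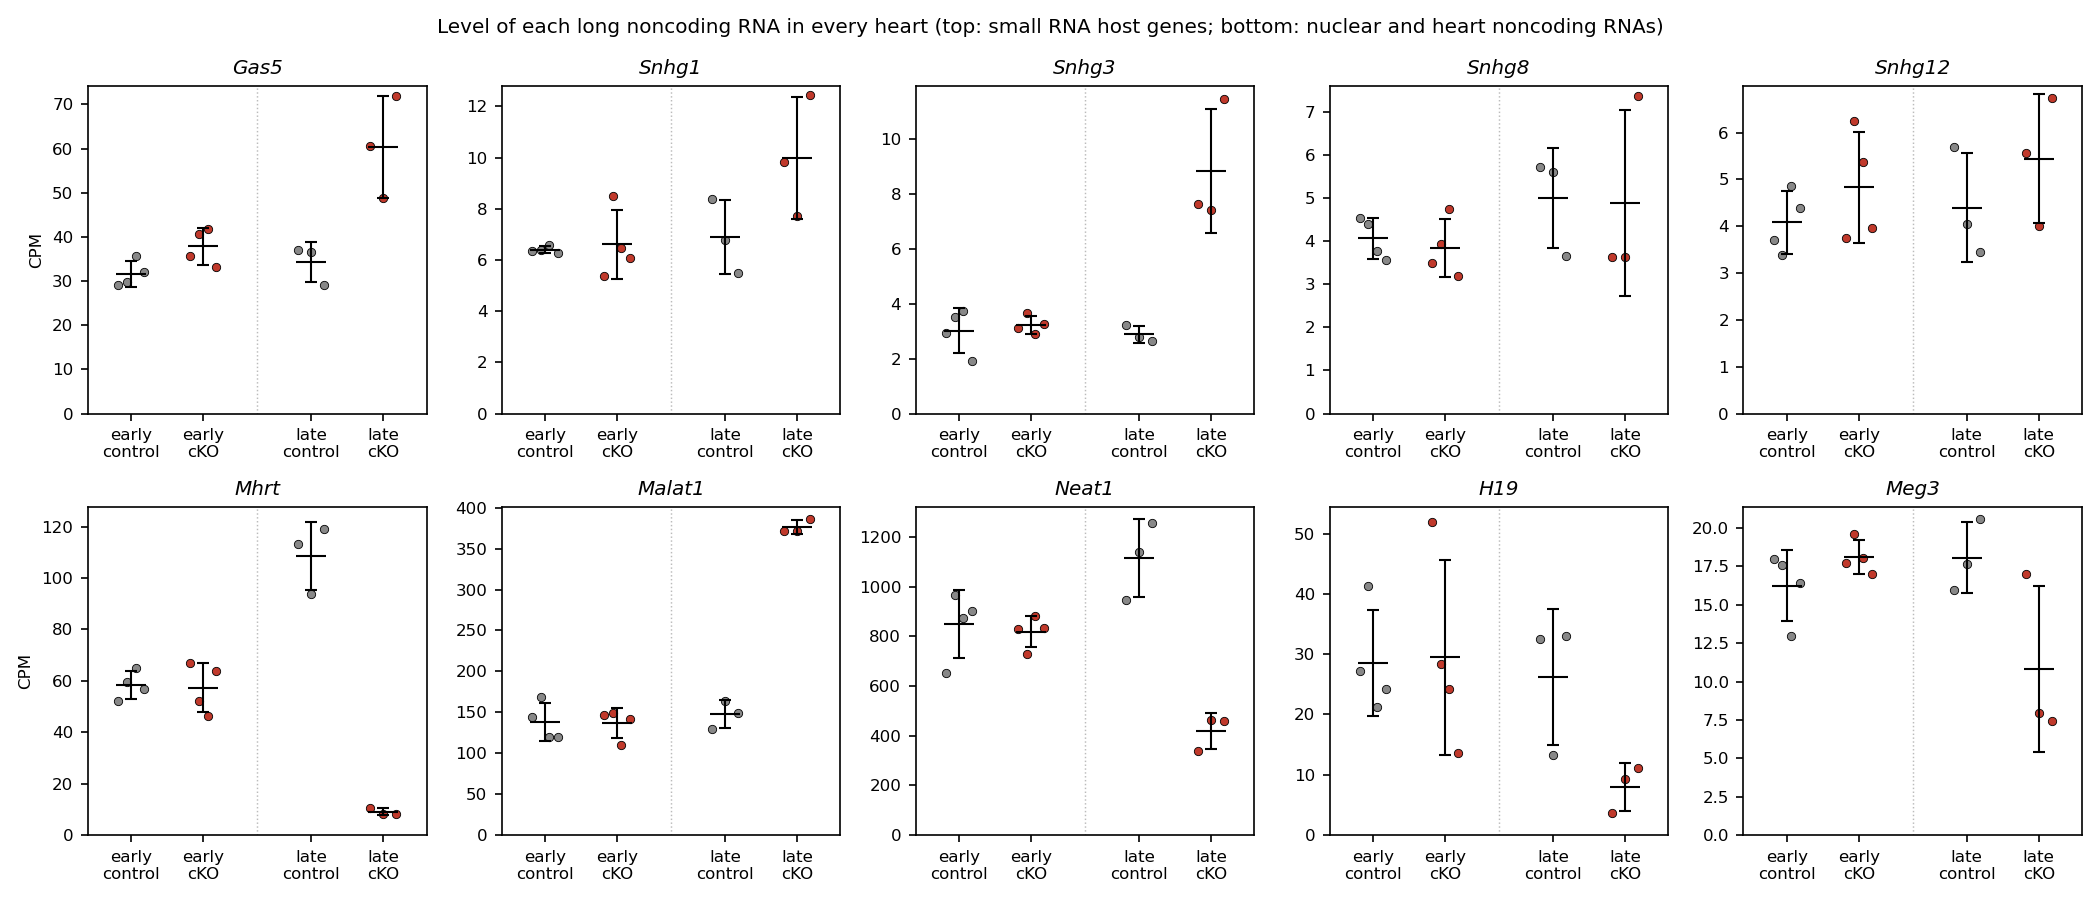
Level in CPM of the 10 noncoding RNAs in every heart (points), with the group mean and SD (bars), for control (grey) and cKO (red) hearts of the early and late tables. Groups overlapped early for every gene, while late the cKO points of Gas5, Snhg3 and Malat1 lay above all controls and those of Mhrt, Neat1 and H19 below them. The share of all genes without overlap late was not counted.

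Gas5 (chr1:161034422-161038539, plus strand, GRCm38) has 10 annotated small nucleolar RNA records inside it and is known to accumulate when cell growth stops. Late, its level was 60.6, 48.8 and 71.9 CPM in cKO replicates 1 to 3 and 37.1, 36.7 and 29.2 CPM in the controls. Every cKO heart stood above every control, and the mean rose from 34.3 ± 4.46 to 60.5 ± 11.6 CPM (n = 3 a group, SD, log2 difference 0.82 with SE 0.17, adjusted p = 0.00206). Early, the level was 35.6, 40.7, 41.8 and 33.2 CPM in cKO replicates 1 to 4 and 29.2, 29.8, 35.7 and 32.1 CPM in controls. The groups overlapped, and the early value of 0.26 (SE 0.09) did not pass (adjusted p = 0.324). The knockout effect on Gas5 was larger late by 0.58 log2 units (SE 0.19, adjusted p = 0.0136), tested over all 14 libraries in a comparison that called 61.2% of 14555 genes.

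Snhg3 is the host of the U17 small nucleolar RNAs (Snora73a and Snora73b), which act in the processing of ribosomal RNA precursors. Its late level was 7.61, 7.42 and 11.4 CPM in cKO hearts and 3.22, 2.80 and 2.64 CPM in controls. The groups did not overlap, and Snhg3 rose 3.06-fold, from 2.89 ± 0.302 to 8.83 ± 2.27 CPM (n = 3 a group, SD, log2 difference 1.61 with SE 0.21, adjusted p = 0.000158). Early, it was at 2.89 to 3.65 CPM in cKO and 1.90 to 3.72 CPM in control hearts (log2 fold change 0.10, SE 0.19, adjusted p = 0.915). The effect differed between the times by 1.53 (SE 0.30, adjusted p = 0.000363). Snhg3 (chr4:132348014-132353686, minus strand) shares 135 exon bases with Rcc1 on the same strand, and reads there can be counted for either gene. Of its 986 exon bases, 705 are shared with Gm17300 on the opposite strand. That gene was not tested here, and without strand, reads from the shared bases cannot be told apart. Rcc1, the nucleotide exchange factor of Ran, rose by 0.56 late (SE 0.17, adjusted p = 0.0171), less than Snhg3.

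Snhg1 carries 8 small nucleolar RNA records. Late, it was at 9.81, 7.70 and 12.4 CPM in cKO and 8.40, 6.79 and 5.49 CPM in control hearts. The groups overlapped, and the difference just missed the test (log2 fold change 0.53, SE 0.22, adjusted p = 0.0552). DESeq2 called it (adjusted p = 0.038), as did the edgeR test without a low-count filter (0.0286), without cKO replicate 2 (0.0229) or without control replicate 1 (0.0327), and over all alternatives the adjusted p ran from 0.0229 to 0.181. Early, its log2 fold change was 0.05 (SE 0.13, adjusted p = 0.942). Snhg1 (chr19:8723475-8726443, plus strand) starts 106 bases from the start of Slc3a2, which lies on the other strand and encodes the heavy chain of amino acid transporters. Slc3a2 rose from 45.9 ± 3.72 to 228 ± 26.7 CPM late (n = 3 a group, SD, log2 difference 2.31 with SE 0.13, adjusted p = 1.58e-06) and was called early as well (0.62, adjusted p = 0.00802).

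Snhg8 and Snhg12 did not pass in either table. Snhg8, host of Snora24, was at 3.64, 3.64 and 7.37 CPM in late cKO hearts and 5.73, 5.60 and 3.66 CPM in controls (log2 fold change -0.04, SE 0.30, adjusted p = 0.922). Replicate 3 was the high cKO heart, and without it the value was -0.44 (adjusted p = 0.0814). Snhg12, which has 5 small nucleolar RNA records, was at 5.57, 4.01 and 6.75 CPM in late cKO and 5.70, 4.06 and 3.45 CPM in control hearts (0.30, SE 0.25, adjusted p = 0.306). With 1 heart left out this value ran from 0.13 (without cKO replicate 3) to 0.55 (without control replicate 1), with no call. For all 5 host genes, late cKO replicate 3 had the highest level of the 6 late hearts. Without it Gas5 (0.69, adjusted p = 0.000320) and Snhg3 (1.39, adjusted p = 6.80e-06) were still called, and the class median was 0.36. Early, Snhg8 had a log2 fold change of -0.08 (SE 0.16) and Snhg12 of 0.25 (SE 0.18, adjusted p = 0.702). Differences between the times were 0.50 for Snhg1 (SE 0.26, adjusted p = 0.105), 0.06 for Snhg8 (SE 0.35) and 0.07 for Snhg12 (SE 0.32), none of them called.

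The small RNAs themselves were almost not counted. Of the small nucleolar RNA records inside the 5 host genes, all but Snora73a, Snora73b and Snora16a had 0 counts over all libraries. Snora73b had 42 counts over the 8 early and 93 over the 6 late libraries, and Snora16a had 24 and 37. The values above are those of the host genes, and levels of the guide RNAs were not analysed here.

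Mhrt (chr14:54968678-54974349, plus strand) showed the largest change of the 10 late. Its counts were 355, 286 and 242 in the cKO hearts and 3471, 2984 and 3964 in the controls. In CPM this was 10.7, 8.13 and 8.29 against 113, 93.8 and 119, so that each cKO heart was far below each control. The mean fell 12.02-fold, from 109 ± 13.1 to 9.04 ± 1.43 CPM (n = 3 a group, SD, log2 difference -3.59 with SE 0.16, adjusted p = 5.71e-07). Early, Mhrt was at 66.8, 52.1, 46.5 and 63.9 CPM in cKO hearts and 52.0, 59.6, 65.1 and 56.7 CPM in controls. These ranges overlapped widely (log2 fold change -0.03, SE 0.11, adjusted p = 0.963), and the effect differed between the times by -3.54 (SE 0.20, adjusted p = 8.12e-10).

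Mhrt overlaps Myh7 and lies beside Myh6, the cardiac myosin genes. It shares 484 of its 1214 exon bases with exons of Myh7 on the opposite strand, and it starts 1751 bases from Myh6, also on the other strand. The library kit does not mark strand, so reads from the shared bases cannot be assigned to Mhrt or Myh7. Myh7, the slow (β) myosin heavy chain, went the other way and rose from 58.5 ± 23.9 to 378 ± 74.4 CPM late (n = 3 a group, SD, log2 difference 2.69 with SE 0.28, adjusted p = 3.78e-05). Its late levels were 357, 461 and 317 CPM in cKO and 44.8, 86.1 and 44.6 CPM in control hearts, with no overlap. Per library, Myh7 had 33.4 to 56.7 counts for each count of Mhrt in late cKO hearts and 0.37 to 0.92 in late controls. Myh6, the fast (α) myosin heavy chain, did not pass late (31636 ± 2773 against 27784 ± 1153 CPM, log2 fold change 0.19, SE 0.14, adjusted p = 0.254) or early (-0.16, SE 0.06, adjusted p = 0.355). Mhrt counts were 0.03% of Myh6 counts in every late cKO heart and 0.35 to 0.41% in late controls.

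**Figure D2:**
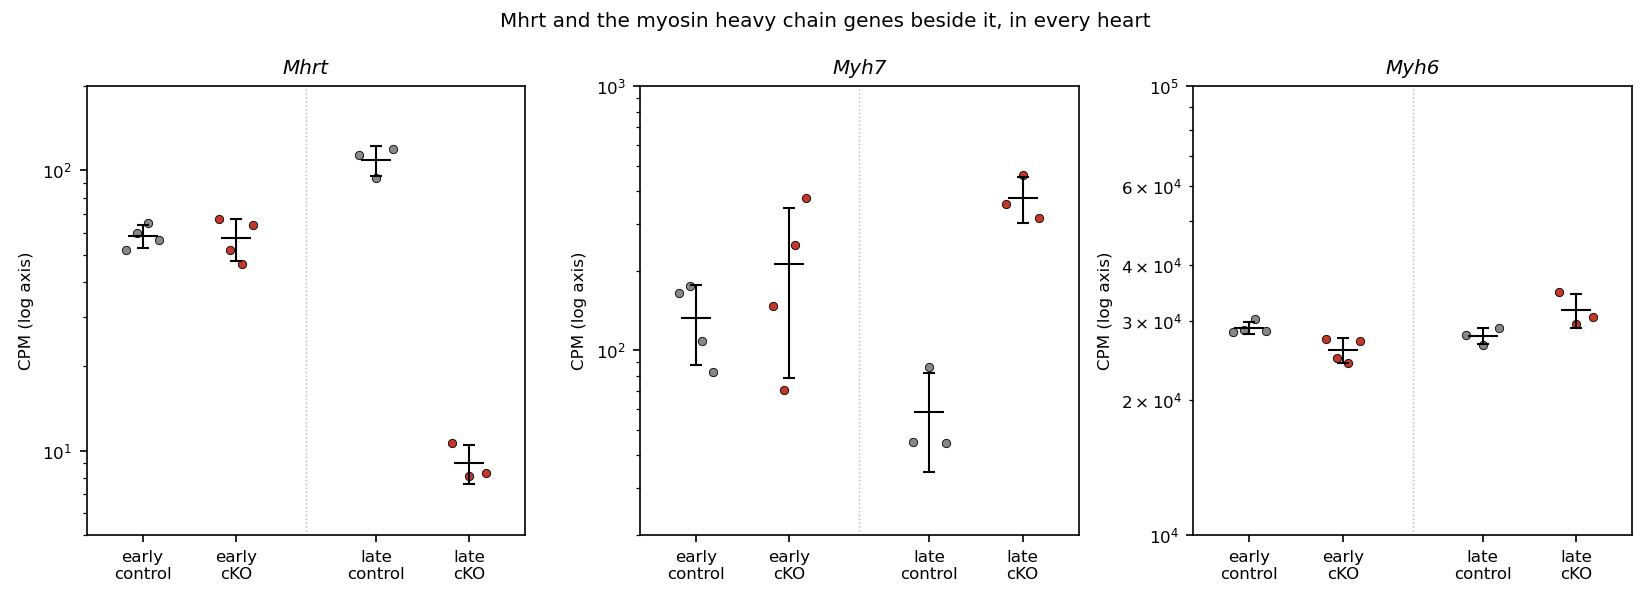
Level in CPM on a log axis of Mhrt, Myh7 and Myh6 in every heart, with group means and SD. In the late table Mhrt was lower in all 3 cKO hearts (8.13 to 10.7 CPM against 93.8 to 119 CPM), Myh7 was higher (317 to 461 against 44.6 to 86.1 CPM) and Myh6 stood at 29537 to 34779 against 26553 to 28839 CPM.

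Another plus-strand gene in this locus was looked up after the values were seen. Gm17428 (chr14:54976933-54977025, inside Myh7) had 7, 5 and 3 counts in late cKO hearts and 58, 51 and 43 in controls. It fell late (log2 fold change -3.34, SE 0.35, adjusted p = 4.02e-05) and had an early value of -0.04 (adjusted p = 0.981). With these few counts in the late cKO hearts, Gm17428 passed the low-count filter late only through the controls. Of the genes listed as binding partners of Mhrt or the complex it is known for, the chromatin remodeller Smarca4 (Brg1) rose by 0.59 (SE 0.11, adjusted p = 0.00123). Hdac9, a histone deacetylase, fell by 1.43 (SE 0.24, adjusted p = 0.000721) and Parp1, which makes poly-ADP-ribose, by 0.80 (SE 0.11, adjusted p = 0.000215). The corepressor Ncor1 had a value of 0.08 (adjusted p = 0.749). Early, none of these 4 was called.

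Malat1 and Neat1 are neighbours on chromosome 19, both on the minus strand, with 22035 bases between Malat1 (5795690 to 5802672) and Neat1 (5824708 to 5845478). Malat1 shares 453 of its 6983 exon bases with Gm37376 on the other strand. The 2 RNAs moved in opposite directions late. Malat1 was at 371, 371 and 386 CPM in the late cKO hearts and 130, 164 and 149 CPM in controls, with no overlap. It rose 2.55-fold, from 148 ± 17.2 to 376 ± 8.85 CPM (n = 3 a group, SD, log2 difference 1.35 with SE 0.13, adjusted p = 2.09e-05). Neat1 was at 337, 463 and 459 CPM in late cKO hearts and 945, 1141 and 1258 CPM in controls, again with no overlap. It fell 2.66-fold, from 1115 ± 158 to 420 ± 71.7 CPM (n = 3 a group, SD, log2 difference -1.41 with SE 0.17, adjusted p = 0.000101). The CPM ratio of Neat1 to Malat1 was 0.91 to 1.25 in late cKO hearts, 6.95 to 8.45 in late controls and 4.53 to 8.00 in the 8 early hearts. Early, Malat1 had a log2 fold change of -0.01 (SE 0.13) and Neat1 of -0.05 (SE 0.11), and neither was called. The effects differed between the times by 1.38 for Malat1 (SE 0.18, adjusted p = 9.55e-06) and -1.34 for Neat1 (SE 0.20, adjusted p = 3.40e-05).

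**Figure D3:**
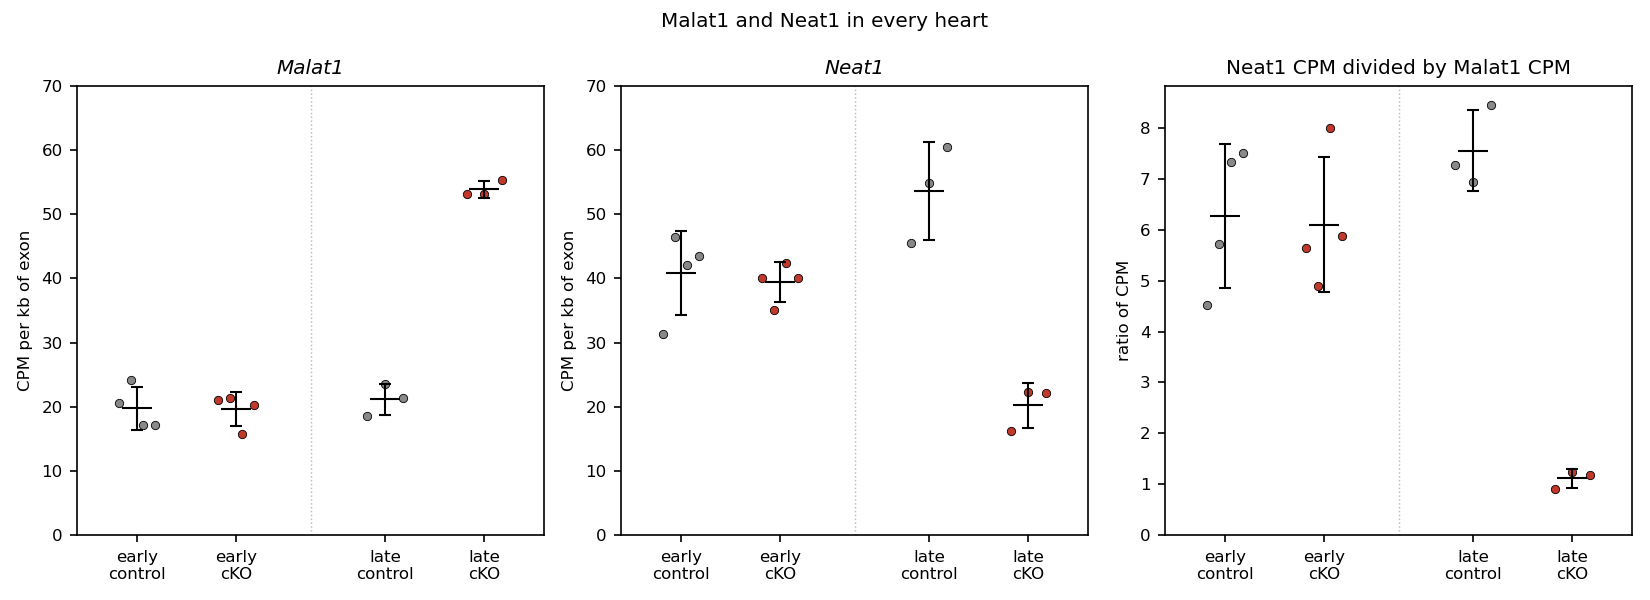
Malat1 and Neat1 in CPM per kilobase of annotated exon, and the ratio of their CPM, in every heart with group means and SD. In late cKO hearts Malat1 stood above and Neat1 below every control, and the ratio was 0.91 to 1.25 against 6.95 to 8.45.

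The libraries were made by poly-A selection, so an A run inside these nuclear RNAs is shown. Malat1 ends in a triple helix in place of a poly-A tail, and Neat1 has a short form with a tail and a long form without one. The longest A run of the full-length transcript of each is in capitals, with the bases beside it.
Malat1-201: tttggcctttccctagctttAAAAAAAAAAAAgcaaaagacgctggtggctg
Neat1-201: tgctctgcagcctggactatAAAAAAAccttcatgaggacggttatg
The Malat1 run has 12 A and lies 298 bases from the 3′ end of the 6983-base transcript. The Neat1 run has 7 A and lies 11226 bases from the end of the 20771-base transcript. Long and short Neat1 share the symbol and were not told apart, and whether capture of either RNA differed between hearts was not tested.

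H19 (chr7:142575529-142578143, minus strand) had the largest SE of the 10 in each table. Late, it was at 3.58, 9.30 and 11.1 CPM in cKO hearts and 32.5, 13.3 and 32.9 CPM in controls. The groups did not overlap, though control replicate 2 was close to the cKO hearts. H19 fell from 26.2 ± 11.2 to 8.01 ± 3.94 CPM (n = 3 a group, SD, log2 difference -1.72 with SE 0.43, adjusted p = 0.0068). The call was lost without late cKO replicate 3 (-2.01, adjusted p = 0.0899) and without a low-count filter (adjusted p = 0.0984), and the adjusted p over all alternatives was 0.00221 to 0.0984. Early, H19 was at 51.9, 28.4, 24.2 and 13.6 CPM in cKO hearts and 27.3, 41.3, 21.2 and 24.3 CPM in controls (log2 fold change 0.04, SE 0.44, adjusted p = 0.986). Its effect differed between the times by -1.74 (SE 0.68, adjusted p = 0.0406), a call that 9 of 23 alternatives lost. Igf2, the growth factor gene imprinted together with H19 and expressed from the other parental allele, was low throughout and fell late from 1.27 ± 0.359 to 0.246 ± 0.158 CPM (n = 3 a group, SD, log2 difference -2.31, adjusted p = 0.00189). Igf2, at 0.0685 to 0.37 CPM in late cKO hearts, passed the low-count filter late only through the controls.

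Meg3 (chr12:109541001-109571726, plus strand) was called late only narrowly. It was at 17.03, 7.96 and 7.44 CPM in cKO hearts and 16.0, 17.7 and 20.6 CPM in controls, and cKO replicate 1 lay within the control range. The log2 fold change was -0.74 (SE 0.29, adjusted p = 0.0497). Without cKO replicate 1 the value was -1.22 (adjusted p = 0.000308). The call was lost without cKO replicate 2 (-0.55, adjusted p = 0.165), cKO replicate 3 (-0.52, adjusted p = 0.217), or control replicate 1, 2 or 3 (adjusted p = 0.0765, 0.0957 and 0.126). RLE size factors (0.0537) and no low-count filter (0.114) lost it as well. Early, Meg3 had 17.01 to 19.6 CPM in cKO and 12.9 to 18.01 CPM in control hearts (log2 fold change 0.16, SE 0.10, adjusted p = 0.641), and the effect differed between the times by -0.88 (SE 0.31, adjusted p = 0.0209). Meg3 shares 1228 of its 18089 exon bases with Gm26906 on the opposite strand. Rian and Mirg lie downstream on the same strand, are noncoding and belong to the same imprinted cluster. Rian fell late from 7.59 ± 0.731 to 1.28 ± 0.861 CPM (n = 3 a group, SD, log2 difference -2.56 with SE 0.38, adjusted p = 0.000347), and Mirg from 0.551 ± 0.217 to 0.162 ± 0.0711 CPM (-1.73, SE 0.46, adjusted p = 0.00879). Mirg, at 0.103 to 0.241 CPM in late cKO hearts, passed the low-count filter late only through the controls.

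Cell type markers moved late as well, where 31.8% of all genes rose and 33.2% fell. Of the 9 cardiomyocyte markers 4 fell, among them Myl3 (-2.55, SE 0.19) and Pln (-1.76, SE 0.18), and 1 rose, Mybpc3 (0.35, SE 0.12). Of 9 fibroblast markers 5 fell and 1 rose, and their summed level was 1017 to 1486 CPM in cKO and 1379 to 1826 CPM in control hearts. Of 7 endothelial markers 6 fell (436 to 561 against 930 to 1143 CPM), and of 9 macrophage markers 8 fell (210 to 275 against 415 to 423 CPM). All 5 erythroid markers rose (196 to 377 against 42.7 to 74.2 CPM). All 4 tested glia markers fell (5.17 to 6.71 against 14.5 to 16.0 CPM), and the 8 lymphocyte markers, of which 1 was tested and fell, summed to 0.256 to 0.48 against 2.38 to 2.7 CPM. Mural markers fell for 6 of 7 while their sum was 1639 to 2340 against 1485 to 1571 CPM. Of 5 atrial markers 1 was called, Nppa, which stressed ventricles also express (3.07, adjusted p = 0.0026), and their sum was 1751 to 2890 against 131 to 948 CPM. The part of these shifts in the late values of the 10 RNAs was not tested. Early, no marker of these lists was called, although early cKO replicate 2 had 1480 CPM of atrial markers against 334 CPM or less in every early control.

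Per kilobase of annotated exon, the order of the 10 in control hearts was the same in both tables. Mhrt was highest, with 48.1 ± 4.52 CPM per kilobase early (SD, n = 4) and 89.4 ± 10.8 late (SD, n = 3), followed by Neat1 (40.9 and 53.7) and Malat1 (19.8 and 21.1). Then came H19 (11.6 and 10.7), Gas5 (8.43 and 9.12), Snhg8 (4.77 and 5.86), Snhg3 (3.06 and 2.93), Snhg1 (2.16 and 2.32), Snhg12 (1.70 and 1.83) and Meg3 (0.898 and 0.999). Ranges of neighbours overlapped for Mhrt with Neat1 early, for H19 with Gas5 and Snhg3 with Snhg1 in both tables, and for Snhg1 with Snhg12 late. In late cKO hearts Malat1 had the highest mean level per kilobase (53.9), Neat1 had 20.2, Gas5 16.1 and Snhg3 8.95, and Mhrt had 7.44. For genes with many annotated transcripts, such as Gas5 with 25, the exon length used is that of all transcripts together, which is longer than any single transcript of the gene. For Neat1 it is the 20771 bases of the long form, which has no tail, while the annotated transcript Neat1-202 has 3004 bases. The place of Neat1 in the order, in control and in late cKO hearts, therefore depends on the length used.

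Other host genes of small nucleolar RNAs give a wider view of the first class. Of 11 tested late, 6 rose and 0 fell, beside 31.8% and 33.2% of all genes, with a median log2 fold change of 0.64. Snhg5 rose by 1.26 (SE 0.17, adjusted p = 0.000223), Zfas1, the antisense host at Znfx1, by 0.80 (adjusted p = 0.0203) and Snhg17 by 0.67 (adjusted p = 0.00193). Snhg18 rose by 0.51 (adjusted p = 0.0137), Snhg11 by 1.96 (adjusted p = 0.0011) and Snhg9, the remaining gene of the 6, by 2.20 (adjusted p = 0.00328). Of 9 tested early, 0 were called (median 0.14). The number that rose late was 4 to 7 over the alternatives, and the number that fell 0 to 1. Snhg14 went the other way late and just missed the test (-0.62, SE 0.25, adjusted p = 0.052). Of 19 other long noncoding RNAs tested late, 5 rose and 6 fell, with a median of 0.04. Mirg and Rmst, among the 6 that fell, passed the low-count filter late only through the controls. Mir22hg, the host of miR-22, rose by 2.31 (SE 0.14, adjusted p = 2.26e-06), Dleu2, the host of miR-15a and miR-16-1, fell by 2.31 (SE 0.17) and the imprinted Peg13 by 1.54 (SE 0.14). Tug1 (0.04, adjusted p = 0.867) and Firre (0.15, adjusted p = 0.392) were not called.

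**Figure D4:**
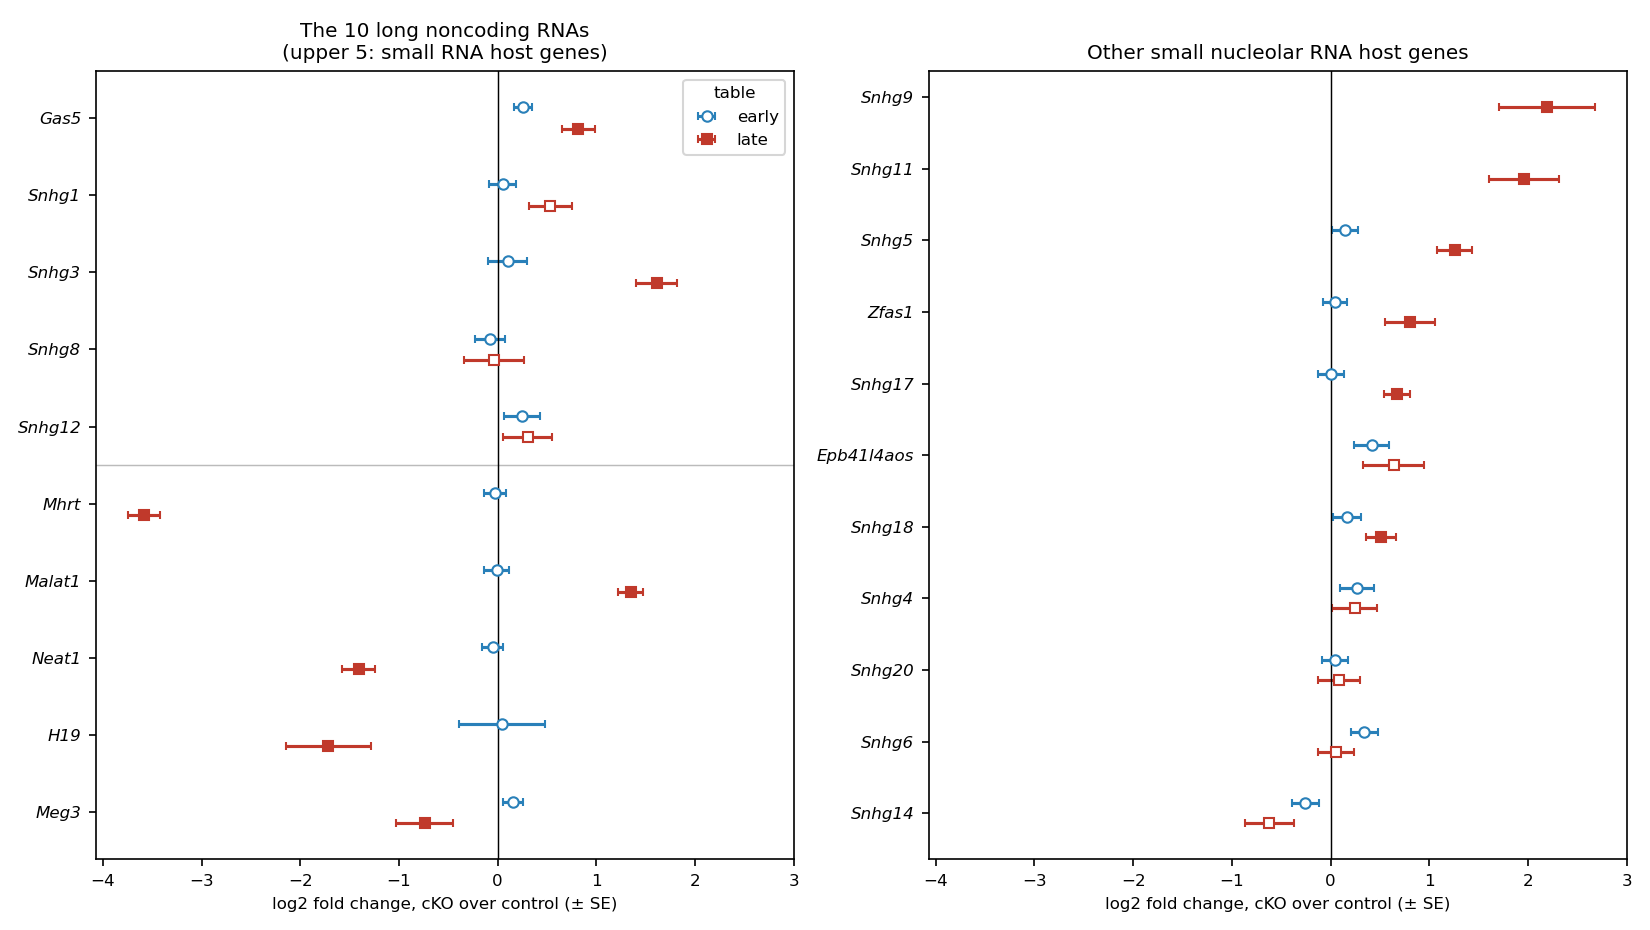
Log2 fold change of cKO over control with its SE for the 10 noncoding RNAs (left) and for 11 other small nucleolar RNA host genes (right), early in blue and late in red. Filled symbols passed the test at an adjusted p under 0.05. No early value did, while late 2 of the 5 host genes and 6 of the 11 others rose and 4 of the 5 nuclear and heart RNAs fell. Snhg9, 1 of the 6, passed the low-count filter only through the late cKO hearts.

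Genes around the decay and translation of host transcripts were counted from lists chosen by function. Of 22 factors of nonsense-mediated decay, 12 rose and 2 fell late (median 0.40). Among all genes, 31.8% rose and 33.2% fell late, and the late list counts that follow are read against these shares too. The cap-binding subunit Ncbp1 rose by 1.19 (SE 0.12, adjusted p = 2.91e-05) and Smg5, which bridges Upf1 to RNA breakdown, by 0.75 (SE 0.10). The helicase Upf1 itself fell by 0.31 (SE 0.10, adjusted p = 0.0245) and the decapping enzyme Dcp2 by 0.74 (SE 0.13). The number that rose was 6 with a replicate block and 6 without late control replicate 2. Of 20 mRNAs known as targets of this decay, 12 rose and 2 fell late (median 1.41). Atf4 (2.91, SE 0.17), Atf5 (3.24, SE 0.18) and Cdkn1a (4.65, SE 0.14) were among those that rose. Of the 12, 1 had almost no counts in late controls and passed the low-count filter only through the cKO hearts. The 2 that fell were Srsf7 (-0.59, SE 0.16) and Tbl2 (-0.46, SE 0.14). Srsf2 (-0.04), Srsf3 (-0.16) and Srsf6 (-0.13) were among those not called. Atf4 (0.64, adjusted p = 0.00225) and Atf5 (1.82, adjusted p = 0.000778) were also 2 of the 3 that rose early. These were 3 of 19 tested, beside 0.554% of all genes called early in either direction. Of 19 genes of the integrated stress response, which lowers translation through eIF2, 17 rose late (median 2.91). Early, 6 of 18 rose, beside the same 0.554% of all genes called, and Asns had values of 3.09 early and 7.62 late. Atf4, Ddit3 and Chac1 are on both lists. Lower decay and higher transcription of these mRNAs cannot be told apart in levels of RNA.

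Of 27 genes with TOP starts, 12 rose and 0 fell late (median 0.43), beside 31.8% and 33.2% of all genes, including Eef1a1 (1.98, SE 0.13), Rpl3 (1.62, SE 0.20), Eef2 (0.62, SE 0.12) and Npm1 (0.82, SE 0.11). Early, 1 of 27 rose, Rpl3 (0.31, adjusted p = 0.0252), where 0.554% of all genes were called. Proteins of small nucleolar ribonucleoproteins, which bind the guide RNAs, rose for 9 of 15 and fell for 2 late (median 0.47). Nop58, a core protein of box C/D particles, rose by 1.41 (SE 0.13), the box H/ACA protein Nhp2 by 2.23 (SE 0.28) and the assembly factor Nufip1 by 1.05 (SE 0.15). The 2 that fell were Dkc1 (-0.47, SE 0.14, adjusted p = 0.0137) and Ruvbl2 (-0.58, SE 0.22, adjusted p = 0.0417). Nop10 (0.39, adjusted p = 0.167) was not called. None of the 15 passed early.

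Of 16 paraspeckle proteins, which assemble on Neat1, 9 rose and 2 fell late (median 0.34) while Neat1 fell, where 31.8% of all genes rose. Cpsf6 rose by 1.02 (SE 0.11), Pspc1 by 0.96 (SE 0.12), Matr3 by 0.82 (SE 0.11) and Hnrnpk by 0.76 (SE 0.13). Of 14 nuclear speckle proteins, where Malat1 resides, 4 rose and 1 fell (median -0.02), and the rises are near the 31.8% of all genes that rose. Srsf5 rose by 0.89 (SE 0.14) and Sf3b1 by 0.41 (SE 0.14), Srsf1 fell by 0.40 (SE 0.11), and the scaffold genes Srrm2 (-0.05) and Son (-0.14) were not called. Rnps1, another of the speckle genes that rose, is also counted among the decay factors. Srsf2 and Srsf3 are also on the list of decay targets, so these lists are not independent. Of 15 imprinted genes or genes of the network tied to H19, 9 fell and 3 rose (median -0.64), where 33.2% of all genes fell. Mest fell by 3.69 (SE 0.27), Gnas by 0.52 (SE 0.12) and Dcn, which is also a fibroblast marker, by 1.06 (SE 0.17), while Grb10 rose by 1.01 (SE 0.12) and Igf2r had a value of -0.04 (adjusted p = 0.852). Early, none of these 3 lists had a called gene.

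Genes with the most similar profile were found for each RNA called late, by the mean absolute difference of log2 CPM relative to the table's controls over 14 libraries, among 12327 genes. Nearest to Gas5 were Inafm1 (0.0743), Wdr83os (0.0755) and the ribosomal protein gene Rpl4 (0.0777). Nearest to Snhg3 were Plcl2 (0.0991), Ssu72 (0.113) and Bop1 (0.114), a ribosome assembly factor. For Mhrt they were Slc40a1 (0.113), Hnmt (0.128) and Camk2a (0.133). Malat1 had Rnf103 (0.106), Ddx27 (0.108) and Ptbp2 (0.109), and Neat1 had Aasdh (0.106), Ttyh2 (0.112) and Zfp128 (0.113). For Meg3 the list was Dock11 (0.0926), Daam2 (0.0972) and Tbc1d24 (0.113). H19 had no close match, its nearest being Olfr1034 (0.343), Adra1d (0.358) and Opcml (0.375).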

How the data were processed

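The authors deposited raw read counts, as whole numbers for each of 53735 gene symbols, in 1 table for each time. Trimmomatic 0.36, STAR 2.6.0c and the genome build GRCm38 are named, per the submitters' processing notes. How reads were counted (tool, gene models, strand) is not given in the sources used here. Per the labels' protocols, mRNA from 100 ng of total RNA was purified with oligo-dT, made into libraries with a kit that does not mark strand, and read as single 100-nt ends.

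Groups came from the labels. The labels do not spell out that each heart library is a different animal, and p-values reflect only the spread between these samples, which may be technical. Libraries of a group all differed by more than sampling noise (chi-square per gene of 3.90 or more). Replicate numbers did not pair the hearts.

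Counts were tested with edgeR 4.0.16 in R 4.3.3 (robust quasi-likelihood F test, TMM, filterByExpr with a minimum count of 10 and a minimum total of 15, Benjamini-Hochberg adjustment over all genes tested). Each table was fitted alone, and the effects at both times were compared with an interaction contrast in a fit of all 14 libraries. Each SE was taken as the log2 fold change over the square root of its F value. CPM uses TMM-scaled library sizes. Alternatives were DESeq2 1.42.0, limma-voom (limma 3.58.1), RLE size factors, library totals, mitochondrial genes left out, no low-count filter, a replicate block, each heart left out and early cKO replicate 4 counted as a control. A fit without robust moderation and list counts under every late setting were added after seeing the data. The procedure was tested on simulated counts. Coordinates are from GENCODE M21 (GRCm38) and promoters from RefSeq (GRCm38.p6). Of the 10 genes, H19 and Neat1 had no promoter entry.

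The 10 genes and all lists were chosen with earlier results of these data known. Named genes are the 10, Fam210a, Myh6, Myh7, up to 4 members of highest CPM and up to 3 called members of smallest p per list, and the 3 genes most like each called member. Snhg9, Snhg14, Slc3a2, Rcc1, Rian, Mirg, Rmst, Igf2, Gm17428, Dkc1, Ruvbl2, Srsf7, Tbl2, Srsf2, Srsf3 and Srsf6 are outside this rule and were named after their values were seen. The values of 1 gene that the rule names are not reported here.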

Additional observations from a re-analysis of the deposited data

Results flagged for a closer look

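The knockout effect differed between the early and late tables, by the tested genotype-by-time contrast, for 7 of the 10 RNAs, in a comparison that called 61.2% of all genes. The late effect minus the early effect, on the log2 scale, was 0.578 for Gas5, 1.53 for Snhg3 and 1.38 for Malat1. It was -3.54 for Mhrt, -1.34 for Neat1, -1.74 for H19 and -0.879 for Meg3. Early values of all 7 were between -0.05 and 0.26. No single heart stood out in the early groups of 4 by Dixon's test for any of the 10, and groups of 3 were not tested.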

How the results depend on the processing

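The late calls of Gas5, Snhg3, Mhrt, Malat1 and Neat1 and their differences between times held under every alternative run (14 late, 23 for the difference). The 7 late calls became 5 without late cKO replicate 3 and 8 with DESeq2. The early count of called genes, 75, was 176 with DESeq2, 397 without a low-count filter and 150 with early cKO replicate 4 counted as a control. With 1 heart left out it ran from 43 (without control replicate 3) to 177 (without cKO replicate 4), and none of the 10 was called early in any setting. Early values near 0 changed sign: H19 was -0.0744 with limma-voom and -0.0447 with the replicate block, and Snhg8 was 0.0659 with early cKO replicate 4 as a control. With 1 heart left out, early ranges were -0.0928 to 0.132 for Snhg1, -0.0709 to 0.216 for Snhg3, -0.204 to 0.0018 for Snhg8, -0.109 to 0.0601 for Mhrt, -0.0746 to 0.101 for Malat1, -0.159 to 0.0172 for Neat1 and -0.37 to 0.28 for H19. Snhg8 late ranged from -0.44 to 0.15. For the difference between times, Snhg8 was -0.0403 with library totals, -0.00916 with limma-voom and -0.0831 with early cKO replicate 4 as a control, and -0.36 to 0.27 with 1 heart left out. Snhg12 was -0.0193 with library totals and -0.0177 with that relabelling, and -0.11 to 0.31 with 1 heart left out. The difference for Meg3 lost its call in 4 of 23 alternatives.

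Among list counts late, 1 heart left out lowered the rises of other long noncoding RNAs from 5 to 3 (leaving out cKO replicate 1, cKO replicate 2, control replicate 1 or control replicate 3), of decay factors from 12 to 6 (without control replicate 2) and of nuclear speckle proteins from 4 to 2 (leaving out cKO replicate 1, cKO replicate 2, control replicate 1 or control replicate 2). With library totals, decay factors had 7 rises and speckle proteins 2. Numbers of falls of 2 or less in the lists of other host genes, decay factors, decay targets, small nucleolar particle proteins, speckle proteins and TOP genes moved by 1 or 2 in some settings.

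With the replicate number as a block, 82 genes were called early, 8345 late and 8004 for the difference. Same-numbered hearts did not deviate together (correlations of -0.0889 to -0.0392 early and -0.514 to -0.0633 late), so the numbers do not pair them, and the block changed no call of the 10. Depth limits Snhg3, Snhg8 and Snhg12 most, with 32 to 108 counts per early library.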
